A study of Rattus norvegicus with 3 samples.

Results

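Expression of 10 genes of neuronal migration was followed through the excitatory lineage of the embryonic rat cerebral cortex: Dcx, Dclk1, Pafah1b1, Ndel1, Cdk5, Cdk5r1, Rnd2, Rnd3, Flna and Cxcr4. They are 10 of the 29772 genes measured, chosen by name for their roles in migration and found by symbol in the deposited gene lists. The rule itself uses no measured value, but the genes were proposed with earlier results of these data known. The data are single-cell libraries of wildtype rat cortex, made with a 10x Genomics 3′ kit (version 3.1) from fresh tissue that had been dissociated with papain. Each of 3 labels, for embryonic days 14, 16 and 18, has 1 library, and a library is named by its label (labelled E14, E16 or E18). No allele or agent separates them, and how many embryos or litters went into each is not given in the sources used here. The protocol text in the labels also describes cultured human cells, oligonucleotide tagging and sorting with an antibody to human cells, which does not match rat tissue, and which of those steps were used is not known. With 1 library per label no difference has a replicate check, so no p-value is given, and a label cannot be told apart from the library that carries it.

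Excitatory neurons of the cortex are born from radial glia at the ventricle, either directly or through intermediate progenitors, and then move outward along radial glial fibres. A newborn neuron first takes a multipolar shape, then becomes bipolar and pulls its nucleus forward behind a leading process. Microtubule binders, the dynein motor with its LIS1 and NDEL1 partners, the kinase Cdk5 and small GTP-binding proteins of the Rnd type carry out or steer these steps. Mutations in several of the human counterparts, among them DCX, PAFAH1B1 (which encodes LIS1) and FLNA, cause malformations in which neurons stop short of their place.

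The libraries held 7100, 6707 and 6937 barcodes in label order, with total counts of 62740631, 80974234 and 73727823 unique molecular identifiers (UMIs, each standing for 1 captured RNA molecule). Cells with at least 1000 genes and at most 10% mitochondrial UMIs were kept, and after removal of likely doublets 4286, 4977 and 5431 remained. Cells were grouped into 26 clusters without using the 10 genes, and 24 clusters were named from marker genes. The 4 classes of the excitatory lineage held 392, 2989 and 1774 radial glia, 457, 427 and 1109 intermediate progenitors, 1467, 586 and 1708 newborn neurons, and 1867, 0 and 539 maturing neurons in label order. The library labelled E16 goes against its label: embryonic globins made up 67.4% of its globin UMIs, against 2.57% and 22.0% in those labelled E14 and E18. Its radial glia also had more Hmga2, an early progenitor gene, at 225 CPM against 12.1 and 21.5 (CPM is the UMIs of a gene in every 1000000 UMIs summed over the cells of a class and library). The library labelled E14 had the lowest of both values, so the order of these genes also goes against that label. Different clusters also make up a class in different libraries: newborn neurons came from clusters 2 and 16 for label E14, from cluster 13 for E16, and from clusters 6 and 7 for E18. Pairs of libraries shared 17, 13 and 12 barcodes, of which 8, 7 and 7 were among the kept cells.

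Promoter sequence was matched in RefSeq (build GRCr8) for 8 members, all but Rnd2 and Pafah1b1, as the 250 bases before and 50 bases after the gene's start. It was searched on both strands for CANNTG, the E-box bound by basic helix-loop-helix factors such as the neurogenic Neurog2, and for the E-box forms CAGATG and CAGCTG, both of which are contained in CANNTG. Only Dclk1 and Cdk5 held an E-box, 1 each and both of the form CAGATG, beginning 15 and 27 bases before the start. The other 6 had no CANNTG in this window. Of the 33469 promoters in all, 16.6% held CAGATG, 15.1% held CAGCTG and 72.1% held CANNTG. Both E-box promoters are shown, together with that of Dcx, the member with the widest range of levels. Capitals mark the E-box, which reads CATCTG on the printed strand of Dclk1.
Dclk1 (chr2:141782634-141782933, plus strand): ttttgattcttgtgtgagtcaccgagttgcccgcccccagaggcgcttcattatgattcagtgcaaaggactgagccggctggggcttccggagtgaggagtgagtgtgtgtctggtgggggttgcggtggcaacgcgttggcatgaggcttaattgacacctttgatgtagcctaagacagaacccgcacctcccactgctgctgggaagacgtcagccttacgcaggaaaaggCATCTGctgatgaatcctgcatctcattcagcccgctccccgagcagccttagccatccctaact
Cdk5 (chr4:11646874-11647173, plus strand): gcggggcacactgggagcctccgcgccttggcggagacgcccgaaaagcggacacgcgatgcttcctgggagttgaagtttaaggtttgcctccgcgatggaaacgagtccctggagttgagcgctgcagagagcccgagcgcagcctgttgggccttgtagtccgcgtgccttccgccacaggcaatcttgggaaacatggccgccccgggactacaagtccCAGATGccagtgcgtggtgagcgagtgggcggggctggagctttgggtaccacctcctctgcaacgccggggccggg
Dcx (chrX:112304112-112304411, minus strand): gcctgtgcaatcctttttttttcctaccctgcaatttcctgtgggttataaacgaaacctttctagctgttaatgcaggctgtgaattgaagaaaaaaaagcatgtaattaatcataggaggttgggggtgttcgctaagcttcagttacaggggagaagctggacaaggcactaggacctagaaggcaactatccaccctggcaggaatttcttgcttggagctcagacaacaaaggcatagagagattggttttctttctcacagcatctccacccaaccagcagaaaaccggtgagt

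Levels below are CPM with 95% exact Poisson intervals, which cover only counting error, not the spread from embryo to embryo or preparation to preparation. Because 3′ UMIs are not scaled to transcript length, levels are compared between cells for 1 gene and not between genes. Ratios are log2 of (CPM + 1) over (CPM + 1), and a gene counts as higher or lower where the ratio is at least 2-fold and the gene averages at least 10 CPM over both sides.

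Comparing newborn neurons with radial glia inside each library asks which migration genes differ between the dividing cell at the ventricle and its postmitotic product. In the library labelled E14 all 10 members passed the minimum, and 5 were higher and 2 lower in newborn neurons. In the next all 10 passed again, with 4 higher and 2 lower, and for label E18 there were 8 that passed, with 3 higher and 1 lower. Of all genes tested, 28.9%, 29.0% and 27.8% were past 2-fold in the same comparisons. The members' median log2 ratio was 0.86, 0.77 and 0.88, where that of all genes was -0.13, -0.07 and -0.08. Dcx, Rnd2 and Cdk5 were higher in all 3 libraries and Flna lower in all 3. With a stricter cell filter (2000 genes and 5% mitochondrial UMIs), which left 132 radial glia and 61 newborn neurons in the library labelled E14, the counts past 2-fold dropped from 7 to 3 there and from 4 to 2 in that labelled E18.

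The second step, from newborn to maturing neurons, had a different makeup. It can be read in the libraries labelled E14 and E18, since no cells of that labelled E16 were named maturing neurons. In the latter 487 cells (9.79%) were left unnamed, against 2 and 97 in those labelled E14 and E18. The stricter filter named 17 maturing neurons labelled E16, and a looser one (500 genes and 20% mitochondrial UMIs) named 44. In the library labelled E14, 4 of 9 members that passed were past 2-fold, all lower in maturing neurons. In that labelled E18, 3 of 9 were, again all lower. The share of all genes past 2-fold was 8.13% and 9.9%. Rnd2, Rnd3 and Flna were lower in both libraries, and Dcx in that labelled E14. At a clustering resolution of 2, 2 members in place of 4 were past 2-fold in the library labelled E14.

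**Figure D1:**
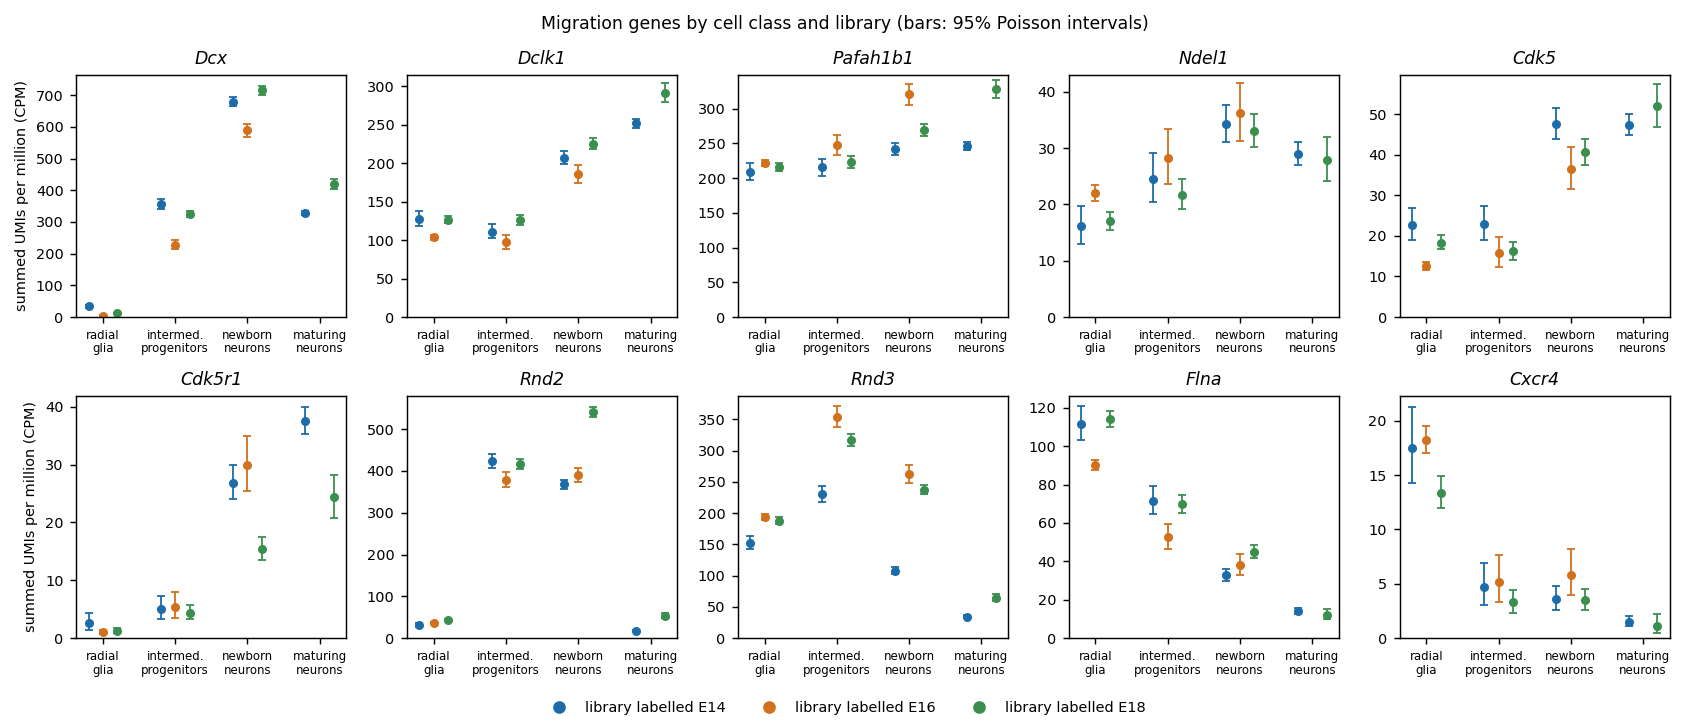
Levels (CPM, vertical axes starting at 0, scaled per gene) of the 10 migration genes in the 4 classes of the excitatory lineage, 1 point per library with its 95% Poisson interval. Dcx reaches 589 to 715 CPM in newborn neurons, Rnd2 is at 368 CPM or more in both intermediate progenitors and newborn neurons, and Flna steps down from class to class.

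Among the microtubule binders, Dcx, or doublecortin, bundles microtubules in migrating neurons and is widely used to mark young neurons. In radial glia it stood at 34.0 CPM (29.4 to 39.1), 4.65 (4.05 to 5.32) and 12.7 (11.3 to 14.1) in label order. In intermediate progenitors it stood at 357, 228 and 325 CPM. In newborn neurons it stood at 679 (664 to 693), 589 (569 to 610) and 715 CPM (702 to 729). Every newborn group lay above every other group of the lineage. The log2 ratio of newborn neurons over radial glia was 4.28, 6.71 and 5.71, over a level in radial glia that was not distinguishable from that of non-neural cells. In maturing neurons Dcx was 329 and 419 CPM in the libraries labelled E14 and E18. That puts maturing neurons near intermediate progenitors, and the intervals of maturing neurons labelled E14 and intermediate progenitors labelled E18 overlapped. The log2 ratio of maturing over newborn neurons was -1.04 and -0.77, so only the first was past 2-fold, and it stood at -0.21 under the stricter cell filter.

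Shares of cells told the same order once every cell had been thinned to 2000 UMIs, which left out between 1 and 20 shallower cells per class and library. Dcx was detected in 71.1%, 63.2% and 72.8% of newborn neurons, in 42.9%, 32.9% and 41.5% of intermediate progenitors and in 6.46%, 0.640% and 2.16% of radial glia. The unthinned shares in radial glia were 33.2%, 5.49% and 14.2%. In endothelial and microglial cells, which should lack Dcx, 3 of 20 cells labelled E14 carried a UMI (15%, exact interval 3.21% to 37.9%), 0 of 24 labelled E16 (interval up to 14.2%) and 0 of 16 labelled E18 (up to 20.6%). Median depth before thinning was 18654, 14755.5 and 18680.5 UMIs in those cells and 13082, 13569 and 12730.5 in radial glia. In each library the share in radial glia lay within the wide interval of those non-neural cells, so at this number of cells it was not distinguishable from theirs and is not read as expression of Dcx.

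Dclk1, a kinase related to doublecortin that also binds microtubules, was present in all 4 classes. Radial glia had 128, 104 and 126 CPM, and intermediate progenitors 111, 97.1 and 126. Newborn neurons had 207, 186 and 225 CPM, and maturing neurons 252 and 292. Levels in neurons lay above those in progenitors without overlap of any intervals, but no step reached 2-fold. Its log2 ratio of newborn neurons over radial glia was 0.69, 0.84 and 0.83, and that of maturing over newborn neurons 0.28 and 0.37.

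Pafah1b1 encodes LIS1, which holds dynein in its force-producing state on microtubules. It varied least of the 10 across these groups: the highest of the 11 class and library levels was 1.57 times the lowest. Radial glia had 209, 221 and 216 CPM, intermediate progenitors 215, 247 and 223, newborn neurons 242, 321 and 269, and maturing neurons 247 and 328. The 2 highest groups, maturing neurons labelled E18 and newborn neurons labelled E16, had overlapping intervals, and so did 7 other neighbouring pairs. The log2 ratio of newborn neurons over radial glia was 0.21, 0.53 and 0.31.

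Ndel1, the scaffold that joins LIS1 to dynein, had 16.1, 22.0 and 17.0 CPM in radial glia. It had 24.5, 28.2 and 21.7 CPM in intermediate progenitors and 34.3, 36.1 and 33.0 in newborn neurons. Maturing neurons had 28.9 and 27.9 CPM. The newborn groups were the 3 highest, and the interval of the lowest of them overlapped that of maturing neurons labelled E14. Newborn neurons over radial glia gave log2 ratios of 1.04, 0.69 and 0.92, only the first past 2-fold, and that one was 0.42 under the stricter cell filter.

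Cdk5 is a kinase that phosphorylates Dcx, Ndel1 and other migration proteins and is active only with a neuronal partner. Its level was 22.7, 12.6 and 18.4 CPM in radial glia and 22.8, 15.8 and 16.2 in intermediate progenitors. Newborn neurons had 47.7, 36.5 and 40.6 CPM and maturing neurons 47.3 and 51.9. Each neuronal group lay above each progenitor group with no overlap. The log2 ratio of newborn neurons over radial glia was 1.04, 1.46 and 1.11, just past 2-fold in the first and last. Both of those drop under 2-fold with the stricter cell filter (0.58 and 0.52).

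Cdk5r1 encodes p35, the main partner that activates Cdk5. It was near the limit of detection in radial glia, at 2.60 CPM (1.46 to 4.29), 1.04 (0.769 to 1.38) and 1.19 (0.804 to 1.70). Intermediate progenitors had 5.05, 5.39 and 4.32 CPM. Newborn neurons had 26.8 (24.1 to 29.8), 30.0 (25.5 to 35.0) and 15.4 CPM (13.5 to 17.5), and maturing neurons 37.6 and 24.3. The log2 ratio of newborn neurons over radial glia was 2.95, 3.92 and 2.91, larger in each library than that of the kinase it activates. The last fell short of the 10 CPM average and is not counted. After thinning, 5.94%, 5.34% and 2.76% of newborn neurons held a Cdk5r1 UMI, against 0.258%, 0.0674% and 0.284% of radial glia and 0 of 60 endothelial and microglial cells. The exact interval of the latter reaches 5.96%, above all 3 newborn shares, so with so few of those cells they give no separate background.

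Rnd2 and Rnd3 are atypical small GTP-binding proteins without the usual switch of GTP hydrolysis. In mouse cortex Neurog2 induces Rnd2, and each of the pair promotes migration at its own step. Rnd2 was low in radial glia, at 31.9, 37.2 and 43.5 CPM. In intermediate progenitors it stood at 423, 379 and 416 CPM and in newborn neurons at 368, 391 and 541. In maturing neurons it was 18.1 (16.5 to 19.7) and 54.0 CPM (48.8 to 59.7). Rnd2 thus occupied a window of 2 neighbouring classes, with low levels on both sides. The log2 ratio of newborn neurons over radial glia was 3.49, 3.36 and 3.61, and that of maturing over newborn neurons was -4.28 and -3.30. Thinned shares showed the same window, with Rnd2 in 52.7%, 47.3% and 51.9% of intermediate progenitors and 45.5%, 55.8% and 60.5% of newborn neurons. The share was 3.07% and 10.4% in maturing neurons (median depth 14333 and 12405 UMIs), against 0 of 60 endothelial and microglial cells of all libraries (exact interval up to 5.96%, median depth 18261.5 UMIs). It was 2.99% in 134 erythroid cells, a red blood cell lineage. Of these 124 came from the library labelled E16, where no cells were named maturing neurons. As unthinned levels, microglia had 37.3 CPM of Rnd2 (16.1 to 73.6, 13 cells) labelled E14 and 31.0 (14.2 to 58.9, 13 cells) labelled E18. Both intervals include the levels of radial glia and of maturing neurons in the same library. The thinned share labelled E18 (7.93% to 13.3%) lay above the interval of the 60 pooled cells, but only 16 of those were labelled E18, and 0 of 16 has an interval up to 20.6%, which includes it. Within a library, then, Rnd2 in maturing neurons was not distinguishable from that in microglia. Radial glia labelled E14 and E18 share this limit, and so do the ratios of newborn neurons over them. Meningeal fibroblasts labelled E18 had less Rnd2 than either class, at 8.54 CPM (2.77 to 19.9, 39 cells).

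Rnd3 was present earlier. Radial glia had 153, 194 and 188 CPM. Intermediate progenitors had 230.2 (217 to 243), 354 (337 to 371) and 317 CPM (308 to 327). Newborn neurons had 108 (102 to 114), 263 (249 to 277) and 238 CPM (230.2 to 246), and maturing neurons 34.6 and 64.7. Within each library the intermediate progenitors had the highest level of the 4 classes, and their interval did not overlap those of the other classes. Between newborn neurons and radial glia the direction differed by library, with log2 ratios of -0.50, 0.44 and 0.34, none past 2-fold. Maturing over newborn neurons gave -1.61 and -1.86, both lower. Over the alternatives the first ran from -2.46 to -0.917, so not all of them kept it past 2-fold.

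Flna encodes filamin A, which crosslinks actin and anchors it to membrane receptors. Its level stepped down through the lineage. Radial glia had 112, 90.1 and 114 CPM, intermediate progenitors 71.5, 52.7 and 69.7, newborn neurons 32.7, 38.2 and 45.1, and maturing neurons 13.99 and 12.2. Inside each library the order of the classes was the same, with intervals that did not overlap. The log2 ratio was -1.74, -1.22 and -1.32 for newborn neurons over radial glia and -1.17 and -1.80 for maturing over newborn neurons. Under the stricter cell filter the first 3 were -0.67, -0.86 and -0.79. Over the alternatives the ratio of maturing over newborn neurons labelled E14 ran from -2.16 to -0.989, so not all kept it past 2-fold.

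Cxcr4, the receptor for the chemokine Cxcl12, guides interneurons and Cajal-Retzius cells. In the excitatory lineage it was low: radial glia had 17.5, 18.3 and 13.4 CPM, intermediate progenitors 4.68, 5.19 and 3.28, newborn neurons 3.56, 5.81 and 3.47, and maturing neurons 1.52 and 1.13. Radial glia had the most in each library, without overlap of intervals. The ratio of newborn neurons over radial glia was -2.02 and -1.50 in the libraries labelled E14 and E16 and counts as lower there, and -1.69 in that labelled E18, under the minimum. With the stricter filter the ratio labelled E16 turned to 0.46.

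**Figure D2:**
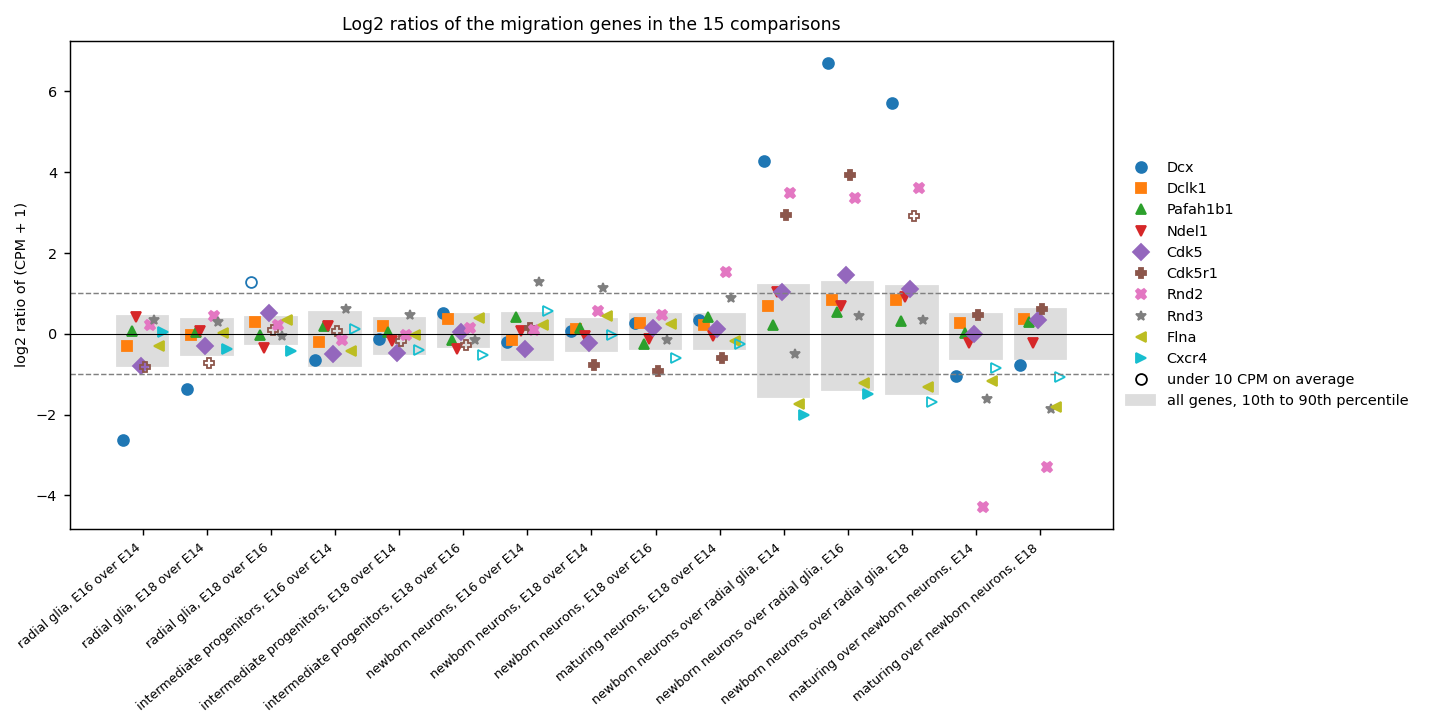
Log2 ratio of (CPM + 1) for each migration gene (marker shapes) in the 15 comparisons named on the horizontal axis, with dashed lines at 2-fold, open markers for genes under 10 CPM on average, and grey boxes for the 10th to 90th percentile of all genes tested. Most points of the 10 comparisons between labels lie between the dashed lines. Dcx reaches 6.71 for newborn neurons over a level in radial glia that was not distinguishable from that of non-neural cells. Rnd2 reaches -4.28 for maturing over newborn neurons labelled E14, and its level in those maturing neurons was not distinguishable from that of microglia.

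Clusters inside a class also differed in these genes. Whether they are successive steps was not tested. In the library labelled E14 the newborn neurons split into cluster 16 (424 cells) and cluster 2 (1034 cells), and in that labelled E18 into cluster 7 (810 cells) and cluster 6 (878 cells). These pairs were ordered by Unc5d, a netrin receptor of multipolar neurons, after their values had been seen. Clusters 16 and 7 had more Unc5d, though under 2-fold (450 and 410 CPM against 299 and 279), and less Stmn2, a microtubule regulator of growing neurites (612 and 820.0 against 1942 and 2450 CPM). The shares of all genes past 2-fold between the paired clusters were 7.73% and 6.85%, and of the 9 members passing in each library 2 and 2 were.

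Rnd3 differed most between those clusters. It stood at 300.5 CPM (282 to 320.2) in cluster 16 and 42.0 (38.0 to 46.4) in cluster 2, a log2 ratio of 2.81. In the library labelled E18 it stood at 387 CPM (372 to 402) in cluster 7 and 125 (118 to 133) in cluster 6, a ratio of 1.62. Dcx was also higher in clusters 16 and 7 but under 2-fold, at 1007 against 566 CPM and 914 against 563. Rnd2 followed with 575 against 298 and 688 against 433 CPM. Cdk5r1 went the other way, with 14.8 against 31.1 CPM (log2 ratio -1.02) and 11.6 against 18.7 (-0.64). Flna had 51.3 against 26.2 CPM (0.94) and 64.0 against 30.8 (1.03). Dclk1, Pafah1b1, Ndel1 and Cdk5 all had ratios between -0.35 and 0.08.

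Intermediate progenitors fell into the same 3 clusters in all libraries, 5, 9 and 15, the last led by mitotic genes such as Ube2c, Hmmr and Cenpe. Dcx was highest in cluster 15 in each library, at 461, 389 and 539 CPM in label order. Clusters 5 and 9 had 360.1 and 280.1 CPM in the library labelled E14, 103 and 163 under label E16, and 257 and 284 under label E18. Rnd2 also peaked in cluster 15, at 610.0, 487 and 606 CPM, where the other clusters had 254 to 402. In intermediate progenitors, then, both were highest in the cells with mitotic transcripts.

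**Figure D3:**
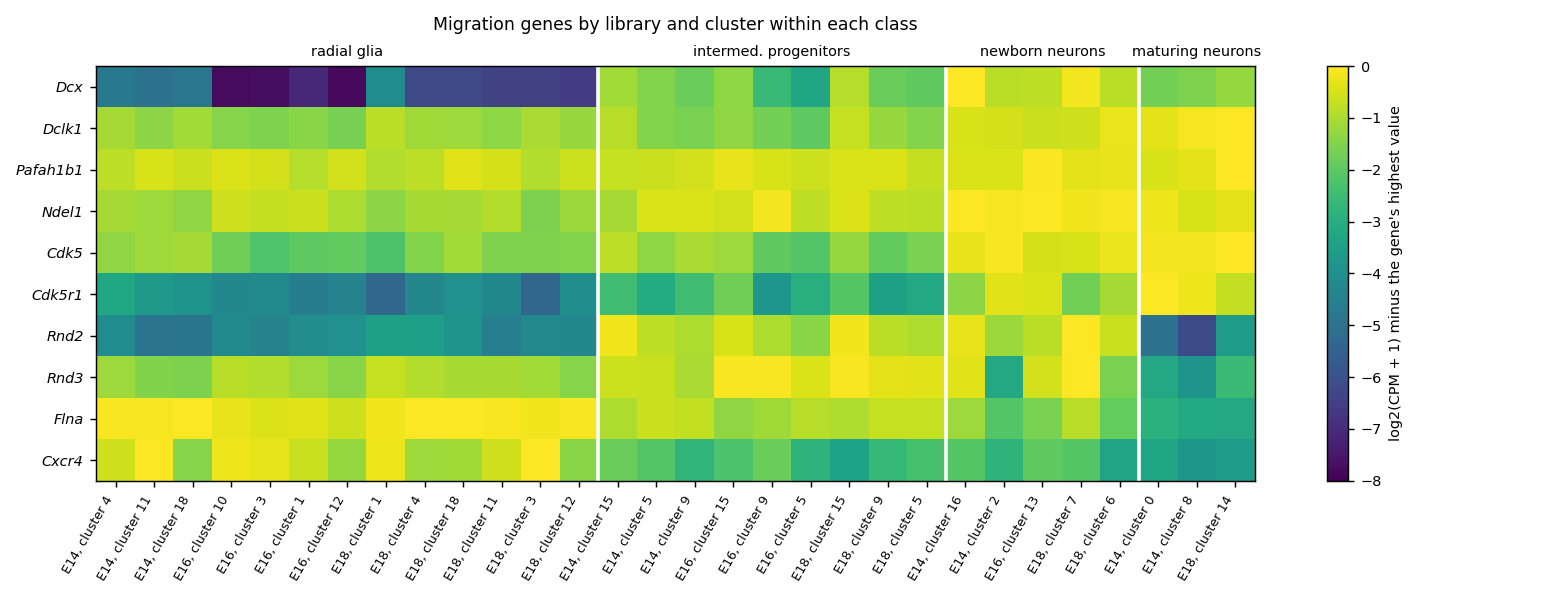
Each column is 1 cluster in 1 library (at least 50 cells), grouped by class, and each row a migration gene, coloured by log2(CPM + 1) minus the gene's own highest value, so that yellow is its peak. The Rnd2 row is brightest across intermediate progenitors and newborn neurons, and Rnd3 drops inside the newborn class between clusters 16 and 2 and between clusters 7 and 6.

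Comparing libraries within a class asks whether a class carries different levels of these genes at different labels. Among 100 values for members, 86 passed the 10 CPM average and 5 were past 2-fold. In radial glia 1 of 9 members was past 2-fold for E16 over E14, 1 of 9 for E18 over E14 and 0 of 8 for E18 over E16, where 8.52%, 3.57% and 2.19% of all genes were. In intermediate progenitors none of 8 members was in any pair, against 8.93%, 2.28% and 2.78% of all genes in the same order of pairs. In newborn neurons the counts were 1 of 9, 1 of 9 and 0 of 9, against 8.26%, 2.96% and 4.51%. In maturing neurons 1 of 9 members was past 2-fold for E18 over E14, against 3.75%. With so few members, 1 gene per comparison is close to these background shares. The members' median log2 ratio stayed between -0.17 and 0.21 over the 10 comparisons, where the median of all genes ran from -0.12 to 0.07.

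Dcx in radial glia was the member behind both counts there, with a log2 ratio of -2.63 (E16 over E14) and one of -1.36 (E18 relative to E14). Other neuronal RNA, taken as a sum, moved with it. The summed level of 6 neuronal genes (Stmn2, Gap43, Neurod6, Neurod2, Syt1 and Snap25) in radial glia was 362, 72.3 and 115 CPM in label order, the order of Dcx. All 6 were detected in the radial glia of each library, and all 6 were highest in that labelled E14. From label E16 to E18 Gap43, Neurod6, Neurod2 and Snap25 rose as Dcx did. Stmn2 and Syt1 went the other way, at 22.8 and 1.85 CPM labelled E16 against 19.5 and 1.47 labelled E18. Endothelial and microglial cells had the order of Dcx as well, with Dcx at 49.9 CPM (20 cells), 1.81 (24 cells) and 17.6 (16 cells). The 6 genes stood at 443, 1.81 and 93.2 CPM in those cells. The Dcx level labelled E16 rests on 1 UMI. The intervals of radial glia and of those cells overlapped for Dcx in each library. Whether RNA released from neurons sets the level of Dcx in radial glia was not tested.

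**Figure D4:**
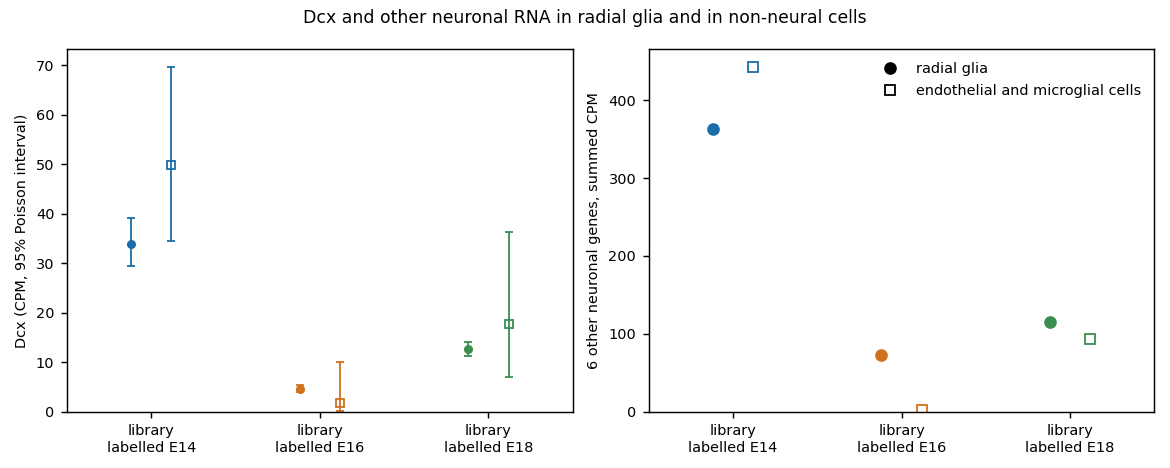
Left, Dcx (CPM with 95% Poisson intervals) and right, the summed CPM of 6 other neuronal genes, in radial glia (filled circles) and in endothelial plus microglial cells (open squares) of the 3 libraries. Both cell groups are highest in the library labelled E14 and lowest in that labelled E16.

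Rnd3 in newborn neurons was the member past 2-fold in that class, with a log2 ratio of 1.28 (E16 over E14) and one of 1.13 (E18 relative to E14). Of the 11 alternatives that can change these ratios 6 kept each past 2-fold, and the ratios ran from 0.29 to 1.71 and from 0.05 to 1.51. Those that brought 1 or both under 2-fold were the stricter and looser cell filters, resolution 0.5, doublet removal at 2 times the rate, clustering each library on its own, and use of the lists among the variable genes. By cluster, Rnd3 had 300.5 CPM in cluster 16 and 42.0 in cluster 2 labelled E14, and 387 in cluster 7 and 125 in cluster 6 labelled E18. Whether these clusters hold the same kinds of cell in both libraries was not tested. The newborn cluster of the library labelled E16, led by Calb1, Calb2 and Lhx9, had 263 CPM. The part of cluster makeup in the difference was not tested.

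Rnd2 in maturing neurons, at 18.1 and 54.0 CPM, was past 2-fold for E18 over E14 (log2 ratio 1.53). Neither level was distinguishable from that of microglia in the same library. The level labelled E18 did lie above that of meningeal fibroblasts there, 8.54 CPM (2.77 to 19.9, 39 cells). Rnd2 remained past 2-fold in 9 of the 10 alternatives that can change the ratio, which ran from -0.50 to 3.6 over them. With the looser cell filter the class grew from 1867 to 2917 cells in the library labelled E14, and the ratio turned to -0.50. With the lists among the variable genes it grew from 539 to 1071 cells in that labelled E18, and the ratio was 3.6. Cluster 8 of the library labelled E14, led by maturing genes such as Snap25, had 8.4 CPM of Rnd2 and cluster 0 had 20.6. Cluster 14 of the library labelled E18 had 55.0.

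Under 2-fold, 48 member values had intervals apart between labels, and 7 of these differed by at least 1.5-fold. Cdk5r1 accounted for 3 of the 7. It was lower in the newborn neurons labelled E18 (15.4 CPM) than in those labelled E14 (26.8) and E16 (30.0), and its maturing neurons showed 24.3 CPM against 37.6 labelled E14. Rnd3 accounted for 2, at 64.7 CPM in maturing neurons labelled E18 against 34.6 labelled E14, and at 354 CPM in intermediate progenitors labelled E16 against 230.2 labelled E14. Dcx was lower in intermediate progenitors labelled E16 (228 CPM) than in those labelled E14 (357). Cdk5 was lower in radial glia labelled E16 (12.6 CPM) than in those labelled E14 (22.7).

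Outside the excitatory lineage the members took other levels. Cxcr4 was high in Cajal-Retzius cells, the early marginal zone neurons that secrete Reelin, at 135 (16 cells), 147 (143 cells) and 217 CPM (68 cells). It was also high in GABAergic cells, at 188 CPM (144 to 240.4, 56 cells) labelled E14 and 261 (214 to 314, 72 cells) labelled E18. In the 75 GABAergic cells labelled E16 no Cxcr4 UMI was found among 595947 UMIs, for which the exact interval reaches 6.19 CPM. Those cells also had more Rnd3, at 685 CPM (620 to 754) against 116 and 130.4, more Dclk1, at 564 CPM against 292 and 339, and less Dcx, at 517 CPM against 805 and 1064. Lhx6, a transcription factor of interneurons from the medial ganglionic eminence, stood at 59.7, 3.36 and 102 CPM in label order in the GABAergic cells, and Gad2, which makes GABA, at 564, 711 and 512. Whether these libraries sampled different GABAergic types was not tested.

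Thinned shares of Cxcr4 followed, with a UMI in 35.7% and 35.2% of GABAergic cells labelled E14 and E18, in 0 of 74 labelled E16, and in 0 of 134 erythroid cells. Median depth was 6009.5, 5486 and 7489 UMIs in the first 3 groups, so the cells without Cxcr4 were the deepest of the 3. Flna was high in meningeal fibroblasts, at 259 and 304 CPM in the libraries labelled E16 and E18.

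**Figure D5:**
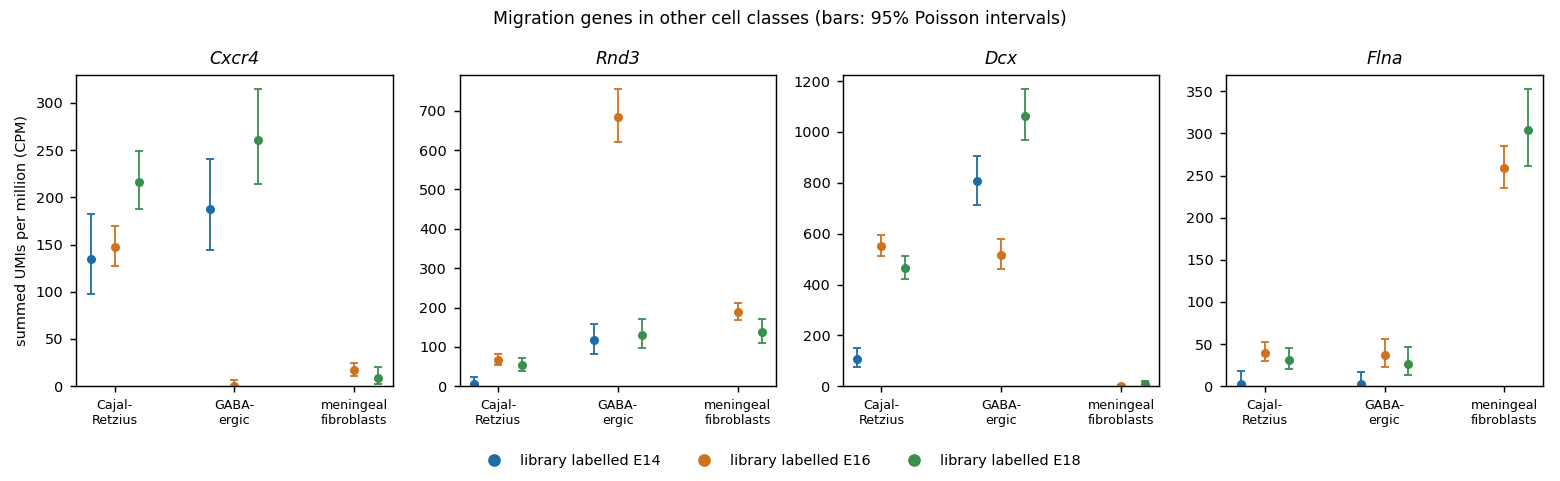
CPM with 95% Poisson intervals of Cxcr4, Rnd3, Dcx and Flna in Cajal-Retzius cells, GABAergic cells and meningeal fibroblasts, for groups of at least 10 cells, 1 colour per library. GABAergic cells of the library labelled E16 lie at 0 for Cxcr4 and at 685 CPM for Rnd3, apart from those of the other libraries.

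Partners of the members were read from lists of pathway genes. Of 5 other microtubule-associated proteins, 2, 3 and 2 were higher and none lower in newborn neurons than in radial glia, in label order, where 28.9%, 29.0% and 27.8% of all genes were past 2-fold in either direction. With 5 genes, a count of 2 is close to that share. Mapt, which encodes tau, had log2 ratios of 3.53, 5.24 and 4.88, and Map2 of 1.97, 3.65 and 2.89. Mapt alone of the 5 was past 2-fold again in maturing over newborn neurons, at 1.61 and 2.48, a step at which 8.13% and 9.9% of all genes were.

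The list of LIS1, NDEL1 and dynein partners held 16 genes, of which 4, 6 and 4 were higher and 1 was lower in newborn neurons of each library. In all 5 of 16, 7 of 16 and 5 of 15 passing genes were past 2-fold, against 28.9%, 29.0% and 27.8% of all genes, so the first and last are close to the background share. The lower one was Nde1, the relative of Ndel1 that serves dividing progenitors, at 90.8, 85.5 and 95.9 CPM in radial glia and 2.30, 5.99 and 3.08 in newborn neurons (log2 ratios -4.80, -3.63 and -4.57). Ndel1 over the same step was 1.04, 0.69 and 0.92, the opposite direction. Dync1i1, a neuronal dynein intermediate chain, was the only one of the 15 passing that was past 2-fold in maturing over newborn neurons, with 24.1 and 10.0 CPM in newborn neurons and 151 and 151 in maturing ones. All genes past 2-fold at that step came to 8.13% and 9.9%.

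Among 8 partners and substrates of Cdk5, 6 passed, and 2 were higher and none lower in newborn neurons of each library. That is close to the 28.9%, 29.0% and 27.8% of all genes past 2-fold in either direction. The higher genes were Dpysl3, a collapsin response mediator, at 2.71, 3.14 and 2.90, and Pak1, a kinase of the actin cytoskeleton, at 2.70, 1.48 and 2.20.

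Among known regulators of Rnd2, Zbtb18, a repressor, was higher in newborn neurons than in radial glia of each library, with log2 ratios of 2.62, 3.26 and 2.91. Neurog2, the activator, was at 889.6, 524 and 587 CPM in intermediate progenitors and 48.4, 71.0 and 53.1 in newborn neurons, so it was low where Rnd2 was still high.

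Cxcl12, the ligand of Cxcr4, was found in the excitatory lineage itself. Intermediate progenitors had 121, 26.6 and 90.2 CPM and newborn neurons 82.6, 8.43 and 49.3, whereas radial glia had 3.12, 2.22 and 2.94 and maturing neurons 1.70 and 1.69. Ackr3, a receptor that takes up Cxcl12, stood at 3.72, 16.1 and 54.0 CPM in newborn neurons, and its log2 ratio for E18 over E14 was 3.54. Levels of Cxcr4 in the same newborn neurons were 3.56, 5.81 and 3.47 CPM.

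Of the 3 Reelin pathway genes, Dab1, the adaptor inside the cell, was higher in maturing than in newborn neurons of both libraries (2.69 and 2.66), and the receptor gene Vldlr was as well (1.03 and 1.29). The other receptor gene, Lrp8, went the opposite way, at 81.9 and 75.9 CPM in newborn and 36.4 and 42.2 in maturing neurons (log2 ratios -1.15 and -0.83), and counts as lower in the library labelled E14. So 2 of the 3 were higher in both libraries and 1 was lower in the first, where 8.13% and 9.9% of all genes were past 2-fold. Dab1 stood at 23.7 and 20.0 CPM in newborn and 159 and 132 in maturing neurons, over the step at which Rnd2 and Rnd3 were lower.

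Genes with profiles most like each member's were listed over 18 points, each a class in a library with at least 50 cells, by Pearson's r of log2(CPM + 1) over about 6022 genes of at least 20 CPM. The points share 3 libraries and their depth, and 1 of them is the erythroid cells labelled E16, so r is only a description. Without the erythroid cells, 6 of the 30 genes listed stayed among the 3 closest to their member, and the first gene stayed first for 1 of 10 members, Cdk5r1. That gene was Rab3c, a vesicle GTPase (r = 0.977, and 0.976 over the remaining 17 points). With all 18 points, Scrt2, a neuronal transcriptional repressor, was closest to Dcx (0.976). Over 17 points Scrt2 had 0.970 and came after Cyth2 (0.980) and Cript (0.977). Cdk5 was closest to Ctnna2, a neuronal catenin (0.977, then 0.959), and over 17 points to Tuba1a (0.974), an alpha-tubulin. Rnd2 was closest to Sstr2 (0.875, then 0.863), a marker that named a class, and over 17 points to Fyn (0.877), a kinase. Flna was closest to Nnt (0.954, then 0.960), and over 17 points to Vamp3 (0.965). Cxcr4 was closest to Cdk14 (0.765, then 0.779), and over 17 points to Osbpl9 (0.844). For Pafah1b1 the closest, Ubl5, went from 0.976 to 0.875, and Klc2 (0.916), a kinesin light chain, took its place.

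Between members the highest r with all points was that of Dclk1 and Pafah1b1, 0.959, which was 0.796 without the erythroid cells. Without them the highest was that of Cdk5 and Cdk5r1 (0.904, and 0.898 with all points), then that of Dcx and Cdk5r1 (0.879, and 0.904), while Rnd2 and Rnd3 had 0.315 (0.426). The lowest was that of Cdk5r1 and Flna (-0.836, and -0.35 with all points), followed by Cdk5 and Flna (-0.809, and -0.095). Of the 45 pairs of members, 13 changed sign when the erythroid cells were left out.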

How the data were processed

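The deposited matrices hold counts of UMIs per gene and barcode, not normalized, as output of Cell Ranger 6.0.1 (stated per the file headers) and mapped to mRatBN7.2 per the submitters' processing notes. Barcodes with at least 1000 genes and at most 10% mitochondrial UMIs were kept. Scrublet scored doublets in Scanpy 1.11.5, and the top scores were removed at 0.8% per 1000 cells, since its own threshold marked 0.0385% in the library labelled E16. Cells of all libraries were clustered together without integration (2000 variable genes without the gene lists, 30 components, 15 neighbours, Leiden resolution 1, leidenalg 0.10.2). Clusters were named from 121 markers of 14 classes, needing 3 raised markers. The endothelial and microglial group serves as background because no mural cluster was named. UMIs were summed per class and library into CPM. Shares carry exact Clopper-Pearson 95% intervals. Named genes are all members, at most the 2 highest and 2 lowest called genes per pathway list and comparison, the 3 genes most like each member, and check and marker genes; pathway values outside these, and those of Unc5d, Stmn2, Lhx6 and Gad2, were chosen after they were seen. Members and lists were chosen with earlier results of these data known. The calls were tested on simulated data. Computation used pandas 2.3.3, scipy 1.17.1 and numpy 2.4.6 under Python 3.11.15, with matplotlib 3.10.9. Alternatives changed filters, clustering, doublet removal, scaling, pseudocount, minimum and fold. Some genes of the pathway lists are not reported here.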

Additional observations from a re-analysis of the deposited data

How the results depend on the processing

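No paired analysis was possible because each label has 1 library. Over the 11 alternatives that can change a ratio (3 others, on the minimum and the fold called, leave it as it is), of 315 values for 29 named ratios 282 kept their direction and their side of 2-fold, 31 moved across it and 2 changed sign (Cxcr4 in newborn neurons over radial glia labelled E16 to 0.46 with the stricter filter, and Rnd2 in maturing neurons, E18 over E14, to -0.50 with the looser one). Of 208 alternative counts of members past 2-fold, 28 differed by over 1.5 times from those reported. With the stricter filter the count was 1 in intermediate progenitors E18 over E14, 3 and 2 in newborn neurons over radial glia labelled E14 and E18, and 2, 0 and 1 in newborn neurons for E16 over E14, E18 over E14 and E18 over E16. With the looser filter it was 0 in maturing neurons and 0 in newborn neurons for both pairs with E14. Resolution 0.5 and doublet removal at 2 times the rate each gave 0 for those pairs, and resolution 2 gave 2 for maturing over newborn neurons labelled E14. Clustering each library on its own gave 1 in intermediate progenitors E16 over E14 and 0 in newborn neurons E18 over E14. With the lists among the variable genes it was 2 in maturing neurons, 0 in newborn neurons E16 over E14 and 1 for E18 over E16. Weighting cells equally gave 2 in maturing neurons. A 1.5-fold call gave 2 in intermediate progenitors E16 over E14, 3 in maturing neurons, 5 in maturing over newborn neurons labelled E18, 2 in newborn neurons E18 over E14, 1 for E18 over E16, and 2 in radial glia E16 over E14. A minimum of 20 CPM gave 0 there, and no minimum gave 1 in radial glia E18 over E16. At resolution 0.5 maturing neurons labelled E18 numbered 20, too few for a value. Leaving the erythroid cells out of the likeness of profiles was chosen after seeing the data. Of 45 r between members, 13 then turned from above to below 0: r of Rnd3 with Dcx, Dclk1, Pafah1b1, Ndel1, Cdk5 and Cdk5r1 went to -0.143, -0.12, -0.0631, -0.169, -0.407 and -0.372. Likewise r of Flna with Dclk1, Pafah1b1, Ndel1, Rnd2 and Cxcr4 went to -0.709, -0.497, -0.572, -0.162 and -0.154, and r of Dclk1 with Rnd2 and Cxcr4 went to -0.0496 and -0.0567. The cause of these changes was not tested.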
